A study of Oryza sativa with 12 samples.

Results

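OsMYB30 overexpression was compared with the ZH11 control before any cold was given, on 3 of the 12 arrays of the series. The members were every probe set of the rice GeneChip other than the manufacturer's 123 AFFX controls, 57258 of 57381, read on the arrays of lines OE2 and OE28 (group OE, 2 arrays) and on the array of the control accession CK (1 array). OE2 and OE28 are independent overexpression lines of OsMYB30 in the japonica rice cultivar ZH11, and CK is ZH11 itself. What promoter drives the transgene is not stated in the labels, and 2 lines are all that stand for the overexpression. Set beside these were the same 3 lines after 6 h at 4 °C, and 3 arrays of the cultivar Huayang before cold: mutant1 and mutant2, both homozygous for an osmyb30 mutation, and the wild type WT. All plants were soil-grown seedlings at the 4-leaf stage, and total RNA came from shoots and leaves. The question was what a higher dose of the transcription factor does to the shoot transcriptome of plants that have not been chilled.

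OsMYB30 belongs to the R2R3-MYB transcription factors, a family that in plants is best known for its hold on the phenylpropanoid route. That route starts from phenylalanine, which the shikimate route makes from phosphoenolpyruvate and erythrose 4-phosphate. Phenylalanine ammonia-lyase (PAL) removes its amino group, and 4-coumarate:CoA ligase (4CL) joins the resulting acid to coenzyme A, the entry point to lignin, flavonoids and other phenolics. In rice the same MYB factor is known for lowering cold tolerance through the beta-amylase genes, which break starch down to maltose. In bulk tissue, a change in the number of cells of a type cannot be told apart from a change in RNA per cell.

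Values are hybridisation intensities in arbitrary units. Their array medians were 34.6 on OE2, 35.4 on OE28 and 37.15 on CK, and the number of arrays limits the precision. Changes are differences of log2(intensity + 16) after quantile normalization, OE minus CK, a scale that understates the change of dim probe sets. Errors are standard errors (SE) from limma, and a probe set was called when its Benjamini-Hochberg adjusted p in that fit was below 0.05. CK has 1 array, so it was assumed to vary like the groups with 2. Nothing in the labels gives separate cultures or harvests within a line. The p-values measure only the spread within the groups of 2 arrays, pooled over OE and the Huayang mutants before and after cold. Readings of 73.9 or less were taken as dim, since marker probe sets for genes that rice does not have reached that level, and against a dim group a fold is given only as a bound. Gene names come from the platform annotation, joined to RefSeq. A LOC number marks a gene for which these tables gave no published name.

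Before cold, 196 of 34355 probe sets bright enough to be tested were called, 0.571% of them. The OE lines were higher for 132 (0.384%) and lower for 64 (0.186%). At an unadjusted p under 0.05 there were 7256. The split depended on scaling. With the intensities as deposited 265 were higher and 55 lower, and with arrays centred on their medians 559 were higher and 62 lower. The median change of all tested probe sets was -0.0038 after quantile normalization, 0.04 as deposited and 0.10 after median centring. With the line as a random block, 167 were higher and 98 lower. Leaving out the OE2 array left 51 higher and 9 lower calls, and leaving out the OE28 array left 73 and 50. The called increases had a median size of 0.83 on the log2 scale, from 0.45 to 8.49, and 42 of 132 were at least 2-fold. The called decreases had a median size of 0.91, from 0.35 to 1.84, and 21 of 64 were at least 2-fold. Of the 196, 132 probe sets belonged to 1 gene each, and these stood for 92 genes that were higher and 32 that were lower. Only 31 of these 124 genes carry a published name, 24 higher and 7 lower.

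**Figure D1:**
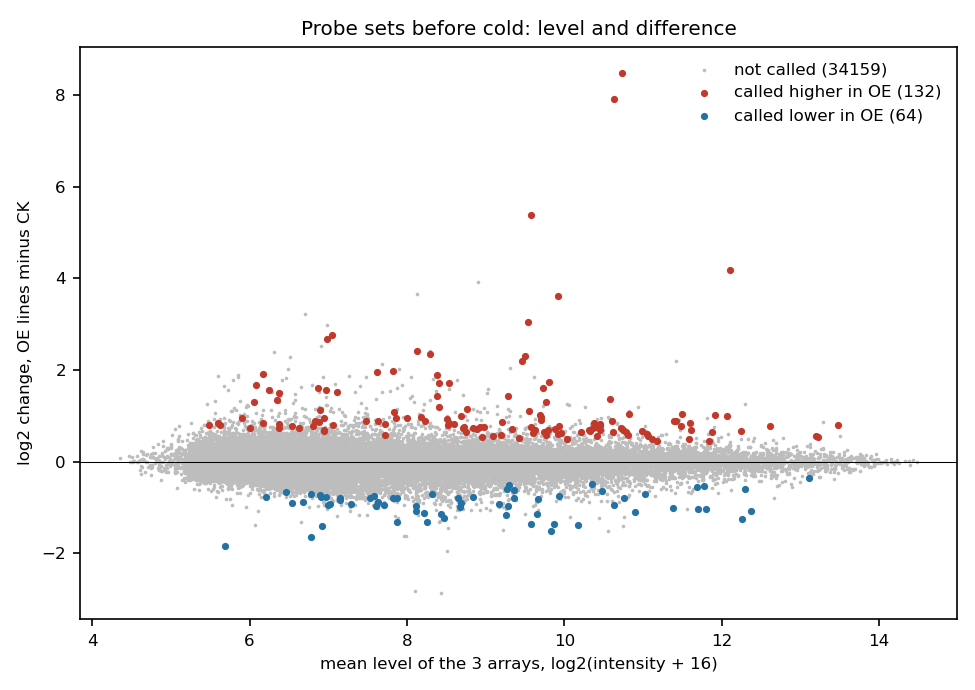
Change of every tested probe set before cold, OE minus CK in log2(intensity + 16), against its mean level over the 3 arrays on the same log2 scale. Called probe sets are coloured by direction, 132 higher and 64 lower among 34355, and the most extreme points lie on the higher side.

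The 2 most extreme readings came from marker probe sets (RPTR), which the array carries for reporter and selection genes foreign to rice. One of them, RPTR-Os-K01193-1_at, read 12525.0 on OE2 and 11860.8 on OE28, against 18.6 on CK, which makes the OE lines at least 136-fold higher. The other, RPTR-Os-A00196-1_s_at, read 9032.6 on OE2 and 10805.7 on OE28, against 25.8 on CK, at least 110-fold higher. Both readings set the overexpression lines apart from their control and go with the labels. RPTR-Os-K01193-1_at was also bright on the Huayang arrays, at 13835.2 on mutant1 and 17781.9 on mutant2, against 2658.5 on WT, so the array labelled WT carries that signal as well. RPTR-Os-A00196-1_s_at was dim there, at 30.9 on mutant1 and 49.0 on mutant2, against 42.1 on WT. The gene OsMYB30 itself is not paired with a probe set by name in the tables used here, so its own level, the direct check on overexpression, was not analysed.

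Among rice genes the steepest increase was that of LOC4330027. It read 2776.8 on OE2 and 2570.4 on OE28, against 48.4 on CK, where it was dim. The OE lines were at least 29.9-fold higher (log2 change 5.39, SE 0.81, limma adjusted p = 0.0403). In Huayang it was dim on all 3 arrays before cold, at 44.0 on mutant1 and 30.2 on mutant2, against 64.1 on WT. After 6 h of cold the difference between OE and CK was not called: the gene read 3188.9 on OE2 and 3327.6 on OE28, against 1151.2 on CK (log2 change 1.43, limma adjusted p = 0.608). In Huayang after cold it read 309.5 on mutant1 and 36.9 on mutant2, against 1301.4 on WT. The difference between the 2 times had an unadjusted p of 0.00852 and was not called after adjustment. The OE lines lay 0.10 apart before cold on the log2 scale. The SE pools all groups of 2 arrays, of which the mutants after cold lay furthest apart for this gene. Whether LOC4330027 is OsMYB30 could not be read from the tables used here. Its call before cold was lost without the OE2 array (limma adjusted p = 0.143), without the OE28 array (0.0691) and with robust eBayes, and its adjusted p ran from 6.65e-06 to 0.143 over 12 alternatives.

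The next genes by size of increase were bright in OE and low in CK on both lines. LOC4332568 read 12292.5 on OE2 and 11212.8 on OE28, against 597.1 on CK, an 18.3-fold increase (log2 change 4.19, SE 0.18, limma adjusted p = 9.84e-05). LOC4340800 read 2192.6 on OE2 and 2308.1 on OE28, against 163.0 on CK, a 12.2-fold increase (log2 change 3.61, SE 0.14, limma adjusted p = 6.09e-05). For both genes the difference was present again after cold. LOC4332568 then read 11834.0 on OE2 and 11026.1 on OE28, against 592.1 on CK. LOC4340800 had a log2 change of 3.78 after cold. The Huayang arrays held LOC4340800 at 652.2 to 811.5, between the levels of OE and CK.

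LOC4345187 was dim in CK. It read 261.2 on OE2 and 214.7 on OE28, against 21.3 on CK, at least 2.81-fold higher (limma adjusted p = 0.000207). LOC4336854 was also dim in CK, at 307.1 on OE2 and 326.9 on OE28, against 64.3 on CK, at least 3.70-fold higher, and its log2 change was 1.96 before cold and 2.68 after it. LOC4338883 read 532.3 on OE2 and 470.5 on OE28, against 76.0 on CK (log2 change 2.41, limma adjusted p = 0.000816). Huayang read that gene at 408.1 to 527.0, close to the OE lines. LOC4335374 read 1495.2 on OE2 and 1050.2 on OE28, against 225.9 on CK (log2 change 2.31, limma adjusted p = 0.00439). Here the 3 Huayang arrays, at 2158.6 to 2612.0, were above both OE lines, so that CK was the low reading of the 6 arrays before cold. LOC4325893 read 1412.1 on OE2 and 1308.6 on OE28, against 369.6 on CK (log2 change 1.75). LOC4335329 read 607.7 on OE2 and 523.8 on OE28, against 147.3 on CK (log2 change 1.73), but a second probe set of this gene had a change of 0.22 and was not called.

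For a pair of genes in this group the call, though not the size of the change, depended on an array. LOC4345264 read 587.5 on OE2 and 516.7 on OE28, against 89.7 on CK (log2 change 2.35, SE 0.31, limma adjusted p = 0.0246). After cold it read 91.4 on OE2 and 62.4 on OE28, against 33.5 on CK, and was not called (log2 change 0.94, limma adjusted p = 0.349, unadjusted p = 0.0121 for the difference between times). Its call before cold was lost without the OE2 array (limma adjusted p = 0.107), without the OE28 array (0.0608) and with a pseudocount of 1, within a range of 0.00399 to 0.107 over 12 alternatives. The change of LOC4345264 was 2.28 without OE2 and 2.42 without OE28. LOC4352488 read 545.1 on OE2 and 510.6 on OE28, against 121.6 on CK (log2 change 1.89, limma adjusted p = 0.0134), and was lost without the OE2 array (0.0805), the highest of a range that began at 0.00841, with changes of 1.87 without OE2 and 1.92 without OE28. Of the 12 largest increases, 9 were called higher after cold as well. Only 1 of them, 4CL5, has a published name.

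**Figure D2:**
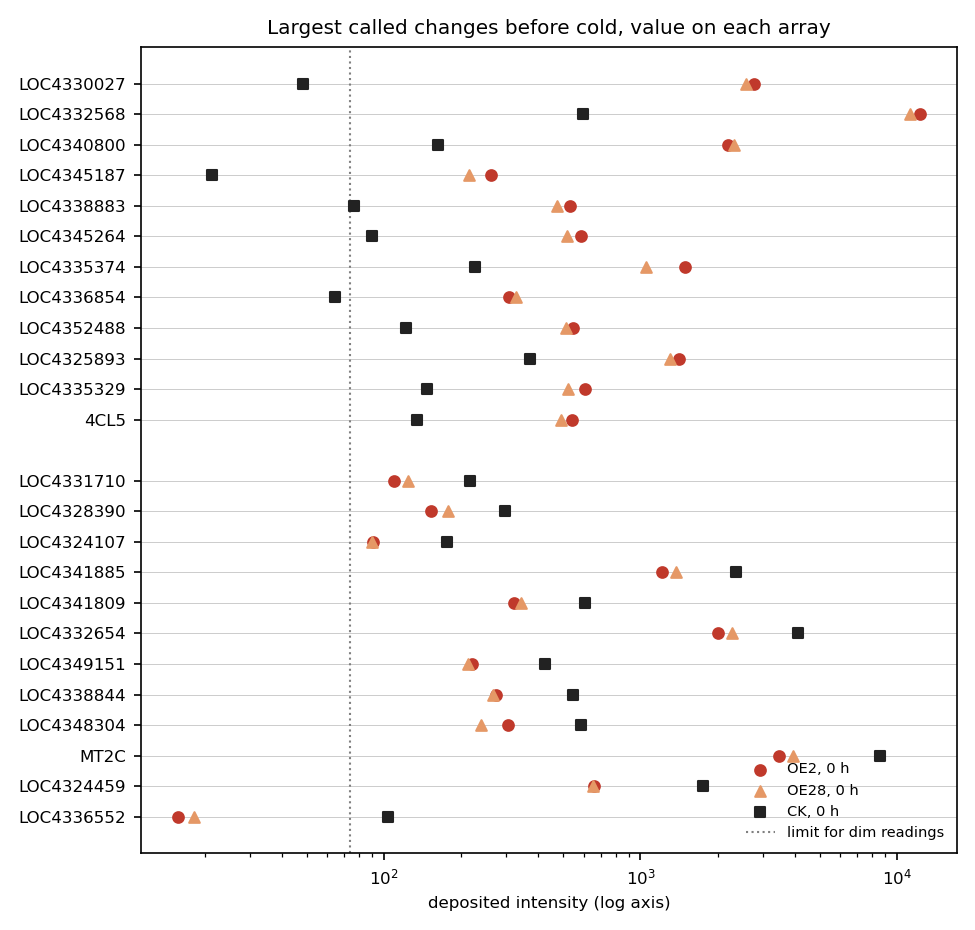
Deposited intensities of the 12 largest called increases and the 12 largest called decreases of genes before cold, on a log axis, with 1 row per gene and a point each for OE2, OE28 and CK, and a dotted line at the limit for dim readings. Genes were chosen among those with both OE lines on the same side of CK, so that agreement is set by the choice. LOC4330027 and LOC4332568 are the furthest from CK.

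Among the enzymes at the entry to the phenylpropanoid route, 3 of 7 tested genes were higher (4CL5, PAL06 and 4CL3), beside 0.384% of all tested probe sets, and none was lower, with a median log2 change of 0.21 beside -0.0038 for all tested probe sets. 4CL5, a 4-coumarate:CoA ligase, read 542.8 on OE2 and 491.1 on OE28, against 134.9 on CK, a 3.29-fold increase (log2 change 1.72, SE 0.15, limma adjusted p = 0.00362). PAL06, a phenylalanine ammonia-lyase, read 1326.6 on OE2 and 1174.1 on OE28, against 375.7 on CK, a 3.03-fold increase (log2 change 1.60, SE 0.16, limma adjusted p = 0.00662). For both genes the OE lines lay close together and well apart from CK, which choosing called genes favours. A second probe set of PAL06 read 906.7 on OE2 and 867.5 on OE28, against 294.7 on CK (log2 change 1.44, limma adjusted p = 0.0403). 4CL3, another ligase of the family, read 1550.1 on OE2 and 1479.3 on OE28, against 887.0 on CK (log2 change 0.67, SE 0.10, limma adjusted p = 0.0403).

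The other 4 genes of the group were not called, and they did not share a direction. A further ammonia-lyase, named PAL in the annotation, had a log2 change of 0.21 by its brightest probe set. Its other probe sets had changes from -0.19 to 0.60, and none was called. The ligases 4CL4, 4CL1 and 4CL2 had changes of 0.05, -0.47 and -0.53. 4CL5 and PAL06 kept their calls under all 12 alternatives, with adjusted p-values of at most 0.0316 and 0.0486. The second probe set of PAL06 lost its call without OE2 (limma adjusted p = 0.143) and without OE28 (0.0694), within a range from 0.00297 to 0.143. 4CL3 lost its call without OE2 (limma adjusted p = 0.150), without OE28 (0.0686) and when the variance trend was left out, in a range that began at 0.0186. After cold 4CL5 read 1082.0 on OE2 and 939.1 on OE28, against 183.7 on CK (log2 change 2.27, limma adjusted p = 0.000867). PAL06 read 4322.1 on OE2 and 4426.3 on OE28, against 1371.2 on CK (log2 change 1.63, limma adjusted p = 0.00648). On the Huayang arrays before cold, 4CL5 read 191.1 on mutant1 and 248.6 on mutant2, against 275.0 on WT. PAL06 read 558.3 on mutant1 and 729.9 on mutant2, against 659.3 on WT, all above its reading on CK. 4CL3 read 889.2 on mutant1 and 824.7 on mutant2, against 772.2 on WT. The mutants thus lay below WT for 4CL5, on both sides of it for PAL06 and above it for 4CL3, with no call.

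The group of shikimate, aromatic amino acid, S-adenosylmethionine and serotonin genes had 5 of 13 tested members higher, beside 0.384% of all tested probe sets, and none lower. It joins the route to phenylalanine with the supply of methyl groups and a product of tryptophan. All 13 changes were positive, from 0.06 to 0.94, with a median of 0.33. SK3, a shikimate kinase, read 2105.3 on OE2 and 1948.7 on OE28, against 1136.9 on CK (log2 change 0.74, SE 0.08, limma adjusted p = 0.0128). SK2, a second shikimate kinase, read 342.0 on OE2 and 309.7 on OE28, against 146.3 on CK (log2 change 0.94, SE 0.15, limma adjusted p = 0.0492). DAHPS1, a synthase of the first step of the shikimate route, read 5657.0 on OE2 and 5644.7 on OE28, against 3439.6 on CK (log2 change 0.67, SE 0.09, limma adjusted p = 0.0322). SK3, SK2 and DAHPS1 act on the way to chorismate, the common precursor of phenylalanine, tyrosine and tryptophan. SAM2, an S-adenosylmethionine synthetase that supplies the methyl donor, read 7626.2 on OE2 and 7346.6 on OE28, against 4177.8 on CK (log2 change 0.79, SE 0.10, limma adjusted p = 0.0207). CYP71P1, the cytochrome P450 that turns tryptamine into serotonin in rice, read 1215.4 on OE2 and 1165.0 on OE28, against 639.3 on CK (log2 change 0.78, SE 0.12, limma adjusted p = 0.0455).

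DAHPS2, a second synthase of that first step, gave different answers from its probe sets. One read 5044.1 on OE2 and 4732.5 on OE28, against 2348.3 on CK (log2 change 1.01, SE 0.08, limma adjusted p = 0.00146). The other, brighter in the mean over the 12 arrays and therefore the one that stands for the gene in the list, was the dimmer on both OE arrays and read 3603.9 on OE2 and 3721.4 on OE28, against 3279.8 on CK (log2 change 0.10, limma adjusted p = 0.415). Counted by the called probe set, DAHPS2 would add 1 to the 5 calls of the list. The called DAHPS2 probe set held its call under every alternative, with an adjusted p of at most 0.0167. PPT2, a plastid transporter of phosphoenolpyruvate, read 1697.2 on OE2 and 1690.5 on OE28, against 921.5 on CK (log2 change 0.78, SE 0.11, limma adjusted p = 0.0322).

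None of the 5 calls in the shikimate and aromatic list was made without the OE2 array, and 1 was made without the OE28 array. Without OE2 the limma adjusted p was 0.0841 for SK3, 0.171 for SK2, 0.124 for DAHPS1, 0.102 for SAM2 and 0.167 for CYP71P1, and in each gene this was the highest over 12 alternatives. Their lowest adjusted p-values were 0.00718, 0.0267, 0.0103, 0.00425 and 0.0209, in the same order. PPT2 was likewise lost without OE2 (limma adjusted p = 0.124) and without OE28 (0.0672), and its lowest value was 0.00963. Median centring called 6 list members, and leaving out the variance trend called 2. After cold 4 of the 13 genes were called higher, namely SK3 (log2 change 0.80, limma adjusted p = 0.0093), DAHPS1 (0.84, 0.0128), SAM2 (0.89, 0.0128) and CYP71P1 (1.00, 0.0220).

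**Figure D3:**
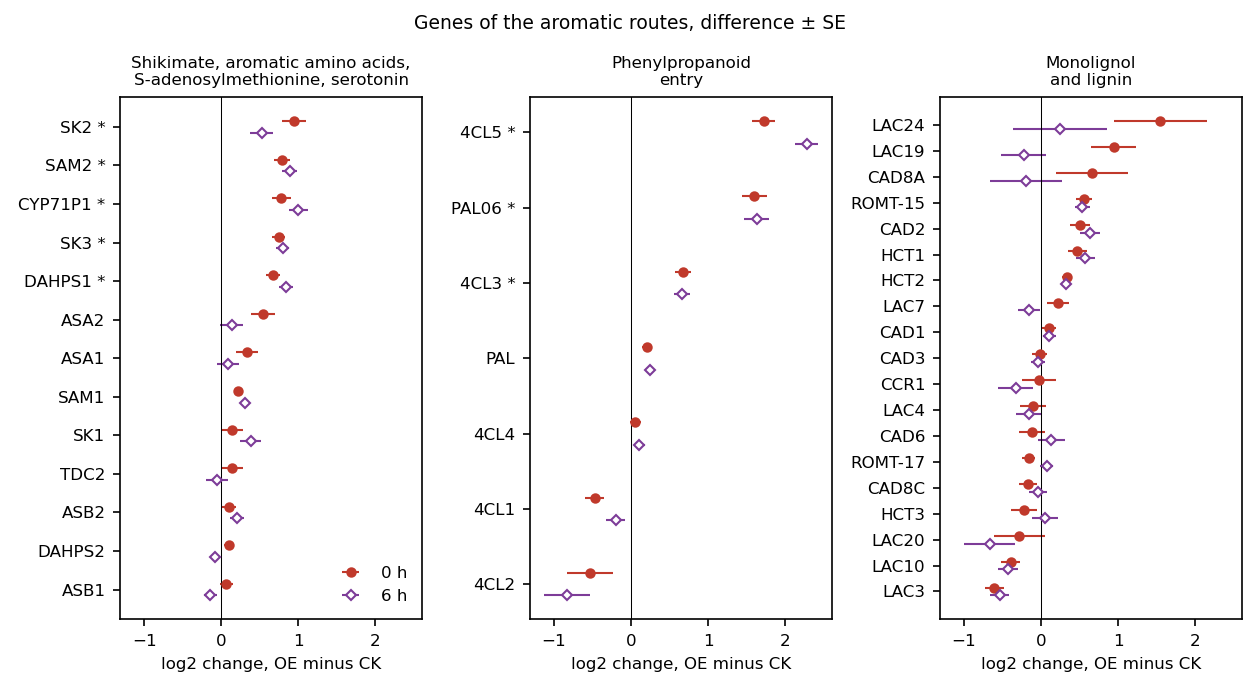
Log2 change, OE minus CK, with its SE, before cold (filled circles) and after 6 h of cold (open diamonds) for the tested genes of 3 lists of the aromatic routes, with called genes marked by an asterisk. In the shikimate list all 13 changes before cold lie right of 0, 4CL5 and PAL06 lead the entry list, and the lignin list spreads around 0.

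No call was made among the later lignin steps. Of 22 genes of monolignol and lignin synthesis on the array 19 were bright enough to test. Of their changes 9 were positive, and the median was -0.02, or 0.10 under median centring. The largest was LAC24, a laccase, which read 173.4 on OE2 and 575.7 on OE28, against 91.4 on CK, with the OE lines more than 3-fold apart (log2 change 1.55, limma adjusted p = 0.199). ROMT-15 had a log2 change of 0.56 (limma adjusted p = 0.0603), CAD2 of 0.51 (0.100) and LAC3 of -0.61 (0.0695). Scaling mattered for this count: 4 members were called higher after median centring and 2 with the values as deposited. In the short flavonoid list, CHS (chalcone synthase) had a change of -0.16 and CHI (chalcone isomerase) of -0.06, and neither was called. Other probe sets of CHS had changes from -0.56 to 0.58, also with no call. Of 11 ABC transporters, membrane pumps that include exporters of phenolics, 1 was higher, beside 0.384% of all tested probe sets, and 10 of the changes were positive (median 0.37). That transporter, ABCG45, read 123.4 on OE2 and 138.6 on OE28, against 60.7 on CK, a dim reading, so the OE lines were higher by a bound only (log2 change 0.88, limma adjusted p = 0.0449). Its call was lost without OE2 (0.0958), without OE28 (0.0742) and under 2 other alternatives, with a lowest value of 0.0210.

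Several other named genes were higher without belonging to those routes. APX7, an ascorbate peroxidase that removes hydrogen peroxide, read 1137.7 on OE2 and 989.1 on OE28, against 491.5 on CK (log2 change 0.98, SE 0.12, limma adjusted p = 0.0200). Huayang held it at 917.1 to 921.4, so CK was the low reading. APX7 was the 1 called member of 22 peroxide and glutathione enzymes (median change 0.14), beside 0.384% of all tested probe sets called higher. It was lost without OE2 (limma adjusted p = 0.0911), the highest of a range from 0.00795. The glutathione S-transferases GSTF1 and GSTU1 had changes of similar size that missed the threshold. GSTF1 read 854.4 on OE2 and 818.9 on OE28, against 352.1 on CK (log2 change 1.10, limma adjusted p = 0.0603). GSTU1 read 659.9 on OE2 and 560.2 on OE28, against 244.4 on CK (log2 change 1.15, limma adjusted p = 0.0741).

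RIBA2, an enzyme of riboflavin synthesis, read 602.2 on OE2 and 572.3 on OE28, against 315.4 on CK (log2 change 0.76, limma adjusted p = 0.0154). Its change after cold was 0.23, and the difference between the times had an unadjusted p of 0.00307. XDH, xanthine dehydrogenase of purine breakdown, read 1543.5 on OE2 and 1474.5 on OE28, against 875.5 on CK (log2 change 0.69, limma adjusted p = 0.0351). CPA read 2039.8 on OE2 and 2008.1 on OE28, against 1186.1 on CK (log2 change 0.68, limma adjusted p = 0.0133) and was called after cold too, with a change of 0.63. HAP3I, a subunit of the CCAAT-binding factor NF-Y, read 530.6 on OE2 and 501.1 on OE28, against 271.0 on CK (log2 change 0.75, limma adjusted p = 0.0468). In all 4 genes the OE lines lay close together and well above CK, a pattern that choosing called genes favours. RPA1C, a large subunit of the single-stranded DNA binding protein RPA, read 138.7 on OE2 and 113.6 on OE28, against 62.5 on CK, where it was dim (log2 change 0.79, limma adjusted p = 0.0499). CASPL2D1, Nrx1-2, Cyt-RPEase, ITPK3, MSRB5 and TK had log2 changes between 0.49 and 0.64 and were called. Without OE2 none of the genes of this paragraph was called, with limma adjusted p-values from 0.0841 (CPA) to 0.170 (MSRB5), and none was called without OE28 either, where they ran from 0.0551 (CPA) to 0.0746 (HAP3I).

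eIF-4G, a scaffold subunit of the translation initiation complex, had 1 called probe set of 4. That probe set read 448.7 on OE2 and 472.7 on OE28, against 174.4 on CK (log2 change 1.20, SE 0.13, limma adjusted p = 0.0102). Its other 3 probe sets had changes of -0.01, 0.20 and 0.22, and none of them was called. After cold the called one read 266.9 on OE2 and 245.6 on OE28, against 353.6 on CK, so that it was then lower in OE by 0.47 on the log2 scale, which was not called (limma adjusted p = 0.264). The difference between the times had an unadjusted p of 1.48e-05 and an adjusted p of 0.508. The call before cold held under every alternative, with an adjusted p of at most 0.0449.

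On the lower side the named gene with the firmest change was MT2C, a type 2 metallothionein, a small cysteine-rich protein that binds metals. Its brightest probe set read 4056.2 on OE2 and 4239.7 on OE28, against 8587.0 on CK, 2.11-fold lower (log2 change -1.08, SE 0.07, limma adjusted p = 0.000731). All 5 of its probe sets were called, with changes from -1.25 to -1.03, and all held under every alternative (adjusted p at most 0.0267). Probe sets of similar metallothionein transcripts may bind the same RNA, so the 5 are not independent. After cold the brightest read 3703.8 on OE2 and 3864.6 on OE28, against 8287.2 on CK (log2 change -1.13). The 3 Huayang arrays read it at 8193.1 to 8901.1, at the level of CK.

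The other large decreases belonged to genes known only by number. LOC4336552 read 15.7 on OE2 and 18.1 on OE28, both dim, against 103.9 on CK, at least 1.33-fold lower (log2 change -1.84, SE 0.09, limma adjusted p = 0.000207). It was dim in Huayang as well, at 16.7 to 21.9, so CK stood alone. LOC4324459 read 660.6 on OE2 and 650.0 on OE28, against 1759.3 on CK (log2 change -1.51, SE 0.23, limma adjusted p = 0.0417). LOC4348304 read 304.5 on OE2 and 239.1 on OE28, against 583.7 on CK (log2 change -1.23, limma adjusted p = 0.00767). LOC4324459 stood in Huayang at 1664.6 to 2082.0, at the level of CK, while LOC4348304 stood there at 312.1 to 321.6, near the OE lines. LOC4338844 read 273.6 on OE2 and 266.5 on OE28, against 544.6 on CK (log2 change -1.14). LOC4332654 read 2006.9 on OE2 and 2267.9 on OE28, against 4117.4 on CK (log2 change -1.02). LOC4341809 had a log2 change of -0.996. LOC4341885 read 1215.7 on OE2 and 1371.6 on OE28, against 2365.5 on CK (log2 change -0.94). The smallest of the 12 were LOC4324107 (log2 change -0.94), LOC4328390 (-0.93) and LOC4331710 (-0.93).

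Probe sets of the same gene disagreed for some of these. LOC4349151 read 221.0 on OE2 and 211.7 on OE28, against 423.2 on CK (log2 change -1.07), while its brightest probe set had a change of -0.48 and was not called. For LOC4324107 the brightest probe set had a change of -0.67, and for LOC4328390 one of -0.22, again with no call. Of the 12 largest decreases 6 were called lower after cold. LOC4336552 and LOC4348304 held under every alternative, with adjusted p-values of at most 0.00326 and 0.0294. LOC4338844 and LOC4332654 lost their calls without OE2 (limma adjusted p = 0.0723 and 0.0873, the highest over 12 alternatives). LOC4324459, LOC4349151, LOC4341809, LOC4341885, LOC4324107, LOC4328390 and LOC4331710 lost theirs without OE2 (0.110 to 0.154) and without OE28 (0.0601 to 0.0727), and their lowest values ran from 0.00326 to 0.0327.

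The remaining named genes that fell did so by less than 2-fold. CML10, a calmodulin-like calcium sensor, read 2751.0 on OE2 and 3074.9 on OE28, against 4116.1 on CK (log2 change -0.56, SE 0.08, limma adjusted p = 0.0351). After cold it read 6997.0 on OE2 and 6843.5 on OE28, against 6828.5 on CK, a change of 0.05, and the difference between the times had an unadjusted p of 0.000734 and no call after adjustment. CML10 is next to LOC4325761 in the gene order of the RefSeq assembly ASM3414082v1, and that neighbour was called lower too, with a log2 change of -0.70. PHT1-8, a phosphate transporter, read 562.3 on OE2 and 534.1 on OE28, against 767.1 on CK (log2 change -0.60, limma adjusted p = 0.0465). IAA17, an Aux/IAA repressor of auxin signalling, read 8205.3 on OE2 and 8092.6 on OE28, against 10166.8 on CK (log2 change -0.35, SE 0.06, limma adjusted p = 0.04998). ILL6, of the family that frees auxin from amino acid conjugates, read 87.4 on OE2 and 97.6 on OE28, against 159.2 on CK (log2 change -0.78, limma adjusted p = 0.0457).

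BC1L9, of the COBRA-like family of wall proteins, read 578.2 on OE2 and 536.7 on OE28, against 898.8 on CK (log2 change -0.80, SE 0.13, limma adjusted p = 0.0458), while its other probe set had a change of -0.24. MIF4, a mini zinc finger protein, read 182.5 on OE2 and 187.9 on OE28, against 299.5 on CK (log2 change -0.79, limma adjusted p = 0.0351). In each of these genes CK lay above both OE lines, which choosing called decreases favours. Without OE2 the limma adjusted p was 0.113 for CML10, 0.153 for PHT1-8, 0.173 for IAA17, 0.157 for ILL6, 0.146 for BC1L9 and 0.143 for MIF4, and none was called. These were their highest values over 12 alternatives, and their lowest ran from 0.0254 (BC1L9) to 0.0398 (IAA17). All but CML10 also lost their calls without OE28 and with the values as deposited or median-centred.

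These calls sat in lists with few others. Of 57 auxin genes 2 were lower (ILL6 and IAA17), with a median change of -0.12. Of 71 calcium genes 1 was lower (CML10, median -0.06), of 40 metal and silicon genes 1 was lower (MT2C, median 0.05), and of 16 phosphate genes 1 was lower (PHT1-8, median -0.04). Of 37 homeobox, ZHD and MIF genes 1 was lower (MIF4, median -0.01). Of 35 genes of wall polysaccharide synthesis 1 was lower (BC1L9), and 30 changes were negative with a median of -0.17. RGP3 came closest of the others in that list, with a log2 change of -0.56 (limma adjusted p = 0.0503). Under median centring the medians were 0.03 for auxin, 0.12 for calcium, 0.13 for phosphate and 0.01 for homeobox genes, so these list directions turn with the scaling. The shares called, from 1 in 71 to 1 in 16, stand beside 0.186% of all tested probe sets called lower.

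**Figure D4:**
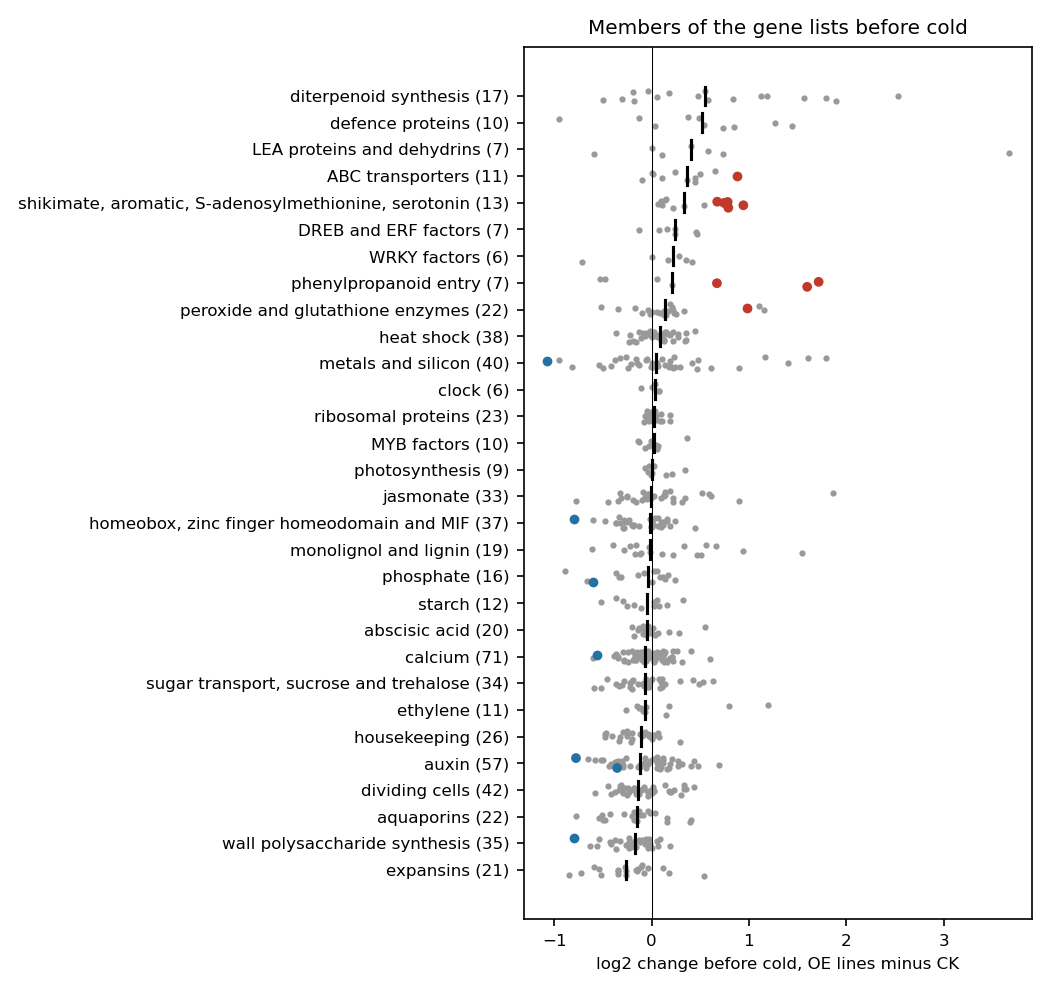
Log2 change before cold, OE minus CK, of the tested genes of each list with at least 6 of them, 1 row per list, with the median as a bar and called genes in red (higher) or blue (lower). The shikimate and aromatic list lies wholly above 0, the diterpenoid list has the highest median (0.55), and most lists are centred near 0.

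Some lists had large changes with no call. Of 17 tested genes (20 on the array) of diterpenoid synthesis, the route to rice phytoalexins and gibberellin precursors, 12 changes were positive and the median was 0.55. CYP701A8 read 131.9 on OE2 and 337.7 on OE28, against 22.1 on CK, where it was dim (log2 change 2.53, SE 0.58, limma adjusted p = 0.0850). CYP71Z7 read 476.2 on OE2 and 524.8 on OE28, against 122.6 on CK (log2 change 1.80, SE 0.38, limma adjusted p = 0.0771). Both OE lines were above CK in these 2 genes, by amounts that differed between the lines for CYP701A8. Of 10 defence proteins none was called, with a median of 0.51. Cht8, a chitinase, read 824.1 on OE2 and 438.8 on OE28, against 193.1 on CK (log2 change 1.45, limma adjusted p = 0.125). PBZ1, a pathogenesis-related protein, read 8563.0 on OE2 and 5256.5 on OE28, against 2704.5 on CK (log2 change 1.26, limma adjusted p = 0.108).

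Of 7 late embryogenesis abundant (LEA) proteins, which protect cells against drying, none was called and the median was 0.41. LEA19 read 385.0 on OE2 and 1171.1 on OE28, against 36.6 on CK, where it was dim (log2 change 3.67, SE 0.87, limma adjusted p = 0.0893). The median of the list was -0.11 without the OE28 array, so its direction rested on that array. In the ethylene list (11 genes, median -0.07, or 0.10 under median centring) the largest change was that of EIL1B, of the family of EIN3-like factors, at 1944.6 on OE2 and 1372.0 on OE28, against 660.0 on CK (log2 change 1.19, limma adjusted p = 0.0687). Expansins, which loosen cell walls, had 18 of 21 changes below 0 (29 genes on the array) and a median of -0.26. EXP7 read 594.2 on OE2 and 1070.2 on OE28, against 1342.9 on CK (log2 change -0.85, limma adjusted p = 0.260). None of the 21 was called.

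The lists that bear on cold and on carbohydrate held no call before cold. The DREB and ERF factors, which include the main activators of cold-induced genes, had a median of 0.24 over 7 genes, and the largest change was that of DREB1A (0.47, limma adjusted p = 0.131). Of these 7 genes, 4 were dim in both OE and CK. The starch list had a median of -0.04 over 12 genes, with the disproportionating enzyme DPE1 furthest from 0 (-0.52, limma adjusted p = 0.0841). Sugar transport, sucrose and trehalose genes had a median of -0.07 over 34, led by SUS5, a sucrose synthase (0.63, limma adjusted p = 0.325). Under median centring the starch and sugar medians were 0.11 and 0.10, and that of abscisic acid was 0.13. The beta-amylases were not paired with a probe set by name, and no value is given for them. The 20 abscisic acid genes had a median of -0.05 before that change of scaling, and SAPK9 had the largest change (0.55, limma adjusted p = 0.116).

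No call was made in the other lists either. Their medians were 0.02 for 10 MYB factors (furthest from 0 was MYBS1 at 0.37), 0.22 for 6 WRKY factors (WRKY71, -0.71), -0.01 for 33 jasmonate genes (TIFY5, 1.86) and -0.14 for 2 class III peroxidases (PRX74, -0.41). They were 0.04 for 6 clock genes (PRR73, -0.11), 0.08 for 38 heat shock genes (Hsp24.1, 0.44), -0.15 for 22 aquaporins (PIP2-5, -0.78) and -0.14 for 42 genes of dividing cells (CYCB1-1, -0.58). Photosynthesis had a median of 0.00 over 9 genes (PSAG, 0.35), ribosomal proteins of 0.03 over 23 (rpl5, 0.19) and housekeeping genes of -0.11 over 26 (GAPC2, -0.48, dim on all 3 arrays). The photosynthesis median is the value of RBCS, the top reading of each array, which quantile normalization fixed in advance. Under median centring the jasmonate median was 0.16, that of the peroxidases 0.05 and that of the housekeeping genes 0.0015. Of the ZH11 lines only OE28 read TIFY5 above the dim limit, at 5.5 on OE2 and 254.7 on OE28, against 4.5 on CK before cold, and at 4.1 on OE2 and 208.5 on OE28, against 4.7 on CK after it. In Huayang before cold TIFY5 read 4.9 on mutant1 and 376.2 on mutant2, against 367.4 on WT.

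Markers of the cell types that a shoot sample can hold had small median changes. The leaf and photosynthesis markers (7 tested of 8) had a median change of 0.03, and their summed intensities were 90951.8 on OE2 and 90143.2 on OE28, against 88537.2 on CK. RBCS, the small subunit of Rubisco and a defining leaf gene, was the brightest probe set analysed on each of the 3 arrays. It read 22647.0 on OE2 and 22819.0 on OE28, against 22532.2 on CK. Quantile normalization gives the top reading of every array the same value, so its log2 change of 0.0 was fixed in advance. Markers of dividing cells (14 of 21) had a median of -0.21 and summed to 1220.4 on OE2 and 1145.5 on OE28, against 1253.4 on CK. Of these 14, 9 were dim in both OE and CK, so that median rests mostly on dim readings. Epidermis and cuticle markers (10 of 13) had a median of -0.16 and summed to 44854.1 on OE2 and 43454.0 on OE28, against 47721.2 on CK. Secondary wall and vessel markers (11 of 13), the cells in which lignin is laid down, had a median of -0.11. They summed to 13055.2 on OE2 and 11578.0 on OE28, against 12437.2 on CK. The laccases among them, including LAC4 (-0.11), are the same probe sets as in the lignin list above. This is therefore not a reading separate from that list. Root markers (10 of 12), 5 of them dim in both OE and CK, had a median of 0.10. They summed to 1189.3 on OE2 and 681.9 on OE28, against 669.1 on CK. The higher sum on OE2 included NAS2, which read 292.1 on OE2 and 95.3 on OE28, against 51.0 on CK (log2 change 1.41). It also included NAS1, at 157.5 on OE2 and 27.1 on OE28, against 8.3 on CK (log2 change 1.79). Lsi1 read 305.8 on OE2 and 197.7 on OE28, against 246.7 on CK. None of the markers was called, and the part of these shifts in the changes above was not tested.

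The 2 OE lines share the CK array, so their separate differences from it are given side by side. OE2 alone was at least 2-fold above CK for 191 probe sets (0.556%) and at least 2-fold below it for 158 (0.46%). OE28 was at least 2-fold above CK for 191 (0.556%) and at least 2-fold below it for 44 (0.128%). OE2 was further from CK than OE28 in 83 of the 132 called increases and 48 of the 64 called decreases, a count that was not made over all tested probe sets. The median difference between the lines was 0.09 among called increases and 0.12 among called decreases on the log2 scale, and 0.10 over all tested probe sets. The largest among the called was 0.50, in LOC4335374.

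Outside the called set the lines differed far more at a few genes, which are described here without a test. LOC4331398 read 7.8 on OE2 and 1318.0 on OE28, against 1236.2 on CK, and after cold 9.4 on OE2 and 1128.1 on OE28, against 1082.3 on CK. Its second probe set showed the same, at 5.7 on OE2 and 947.9 on OE28, against 950.9 on CK, so OE2 alone was dim for this gene. LOC4326189 was bright in OE28 alone, at 10.2 on OE2 and 1800.8 on OE28, against 7.6 on CK before cold, and at 7.7 on OE2 and 1246.1 on OE28, against 6.5 on CK after it. LOC4336872 was bright in OE2 alone, at 368.9 on OE2 and 21.7 on OE28, against 28.2 on CK, and again after cold. LOC4325834 read 24.4 on OE2 and 1361.3 on OE28, against 50.3 on CK before cold, but was dim on all 3 arrays after it. BURP16 read 139.4 on OE2 and 2078.5 on OE28, against 86.0 on CK.

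After 6 h at 4 °C the same contrast gave 107 called probe sets (0.311%), 79 higher (0.23%) and 28 lower (0.0815%) in OE than in CK. No array is shared between the times, but the lines are the same. Both contrasts also take the same SE for a probe set from a joint fit, which favours a call at both times. Of the 132 probe sets higher before cold, 61 were called higher after it, 46.2% of the first list and 77.2% of the second. Of the 64 lower before cold, 19 were called lower after it, 29.7% of the first list and 67.9% of the second. The direction was the same at 6 h for 130 of the 132 and 61 of the 64, with median changes of 0.66 and -0.60. How many of all tested probe sets kept their direction was not counted, so these counts have no background beside them. The change was smaller after cold in 93 of 132 and 51 of 64, which is what choosing probe sets by their size before cold also gives. No probe set had a called difference between the times in limma, 1401 had an unadjusted p under 0.05, and 1 was called when only ZH11 arrays entered the fit. Of the called increases 32, and of the called decreases 16, had an unadjusted p under 0.05 for that difference. The probe sets of opposite sign at 6 h were those of eIF-4G, LOC4327803 and CML10 and 2 without a gene name.

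**Figure D5:**
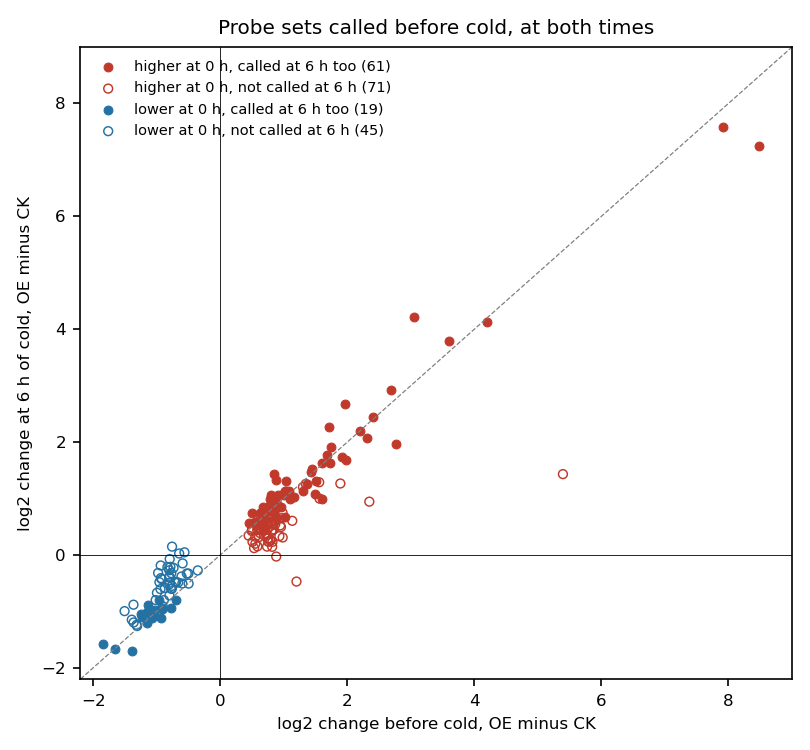
Log2 change after 6 h of cold (vertical axis) against the change before cold (horizontal axis), OE minus CK, for the 196 probe sets called before cold, filled where they were called again, with a dashed line of equal change. Most points lie in the lower left and upper right quadrants, and 5 have opposite signs at the 2 times.

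The 3 Huayang arrays before cold give a second reading of which side stood apart, with the difference of cultivar in it. Among the 132 called increases both OE lines, and not CK, lay beyond all 3 Huayang arrays for 46. CK alone lay beyond them on the other side for 23, both OE and CK did for 62, and neither for 1. Among the 64 called decreases these counts were 6, 11, 47 and 0. Over all tested probe sets both OE lines lay above the Huayang arrays for 19.9% and below them for 19.0%. CK lay below the Huayang arrays for 31.8% of all tested probe sets and above them for 36.5%. Of the 24 named genes that were higher, both OE lines were above all 3 Huayang arrays in 24. Of the 7 named genes that were lower, both lines were below those arrays in 6. The called probe sets were chosen on these same OE arrays, which favours such counts. In Huayang the mutants were compared with WT at the same time, and 1 of 34355 probe sets (0.00291%) was called, the marker RPTR-Os-K01193-1_at, with 1736 at an unadjusted p under 0.05. The mutants' change had the opposite sign to that of the OE lines in 67 of the 132 called increases and 22 of the 64 called decreases, and none of these was at least 2-fold. The share of opposite signs over all tested probe sets was not counted.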

How the data were processed

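Total RNA had been labelled as biotinylated cRNA and hybridised to GeneChip arrays, 1 per sample, per the labels' protocols. The values are probe set intensity values on a linear scale, as deposited by the authors, and their summary and normalization method is not given in the sources used here. Array quartiles differed by up to 0.238 on the log2(value + 16) scale, which led to quantile normalization. The filter kept 34355 probe sets whose mean reached the 40th percentile, and 8 group means were fitted over 12 arrays with limma 3.58.1 in R 4.3.3 (lmFit and eBayes with trend, 4 residual degrees of freedom). Benjamini-Hochberg adjustment ran over all tested probe sets. Each line was sampled at both times, which pairs the arrays by line: a line's pair of deviations from the group means correlated at 0.517 in the OE lines and 0.429 in the mutants, and the fit with line as a random block had a correlation of 0.334.

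The platform annotation gave a single gene for 22436 probe sets, more than 1 for 95 and no gene for 34727. Published names came from matching gene identifiers to RefSeq (assembly ASM3414082v1), for 3192 probe sets of 2457 genes. A gene entered a list with its brightest probe set. The genes given by name are the 12 largest called increases and the 12 largest called decreases with both OE lines changed in the same direction. They also include the called members of 32 lists, the largest member of lists with none, and others with a published name that were called. The members, lists and tests were chosen with earlier results of these data known. The limit for dim readings was chosen after the data were examined: 62 of 64 marker probe sets stayed at or under it on all arrays. Alternatives were the scaling, filter, pseudocount (1 or 64), variance model, line as a block, only arrays of 1 cultivar, and each OE or mutant array of a comparison left out in turn, never the single CK or WT array. The fit was tested on simulated data. No sequences were used here.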

Additional observations from a re-analysis of the deposited data

Results flagged for a closer look

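In a neighbouring pair of genes OE2 and OE28 moved to opposite sides of CK. LOC4347709 read 1130.4 on OE2 and 163.7 on OE28, against 455.3 on CK before cold, log2 changes of 1.17 for OE2 and -1.52 for OE28, which differ by 2.68. After cold it read 1363.7 on OE2 and 247.1 on OE28, against 378.4 on CK. LOC4347708 read 4142.7 on OE2 and 731.0 on OE28, against 1745.1 on CK before cold, log2 changes of 1.18 for OE2 and -1.32 for OE28, which differ by 2.50. After cold it read 4125.8 on OE2 and 1106.5 on OE28, against 1970.3 on CK. The genes lie next to each other in the order of the RefSeq assembly ASM3414082v1. The Huayang arrays before cold read 1826.4 to 2845.6 for LOC4347709 and 7938.0 to 9471.3 for LOC4347708. The lines share the CK array, each has 1 array per time, and the difference between them was not tested.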

How the results depend on the processing

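The number of arrays sets the main limit, since CK has 1 array and each line 1 per time. Before cold 196 probe sets were called (132 higher, 64 lower). Other fits called 320 (265 higher) with the values as deposited, 621 (559 higher) after median centring, 384 (233 higher, 151 lower) with robust eBayes and 265 (98 lower) with the line as a random replicate block. Calls shared with the 196 numbered 181, 181, 195 and 194 in these 4 fits. Without OE2 or OE28 in turn there were 60 to 123 calls, 51 to 73 higher and 9 to 50 lower. The other settings stayed within 1.5 times of 196: 170 with no filter, 244 with a 60th percentile filter, 216 and 195 with pseudocounts of 1 and 64, 167 without the variance trend and 232 with ZH11 arrays only. Of the 132 called probe sets with 1 gene, 28 were called under every alternative, 37 were lost only when an OE array was left out, and 0 changed sign. After cold 35 to 40 of 107 calls were made with an array left out, 27 to 33 higher and 7 to 8 lower. The difference between times had 1 call, lower, with ZH11 arrays only, against 0. The Huayang comparison had 2 calls, both higher, as deposited, median-centred, unfiltered, with pseudocount 1 and with the block, 0 with its own cultivar only, and 3 to 3 with a mutant left out. OE2 alone was at least 2-fold above CK for 348 after median centring, and below it for 92 as deposited and 74 after median centring, and OE28 below it for 28 after median centring. The cause of these shifts was not tested.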
